A study of Mus musculus with 36 samples.

Results

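The 10 genes described here are feedback regulators of MAP kinase signalling: 8 dual-specificity phosphatases (*Dusp1*, *Dusp2*, *Dusp4*, *Dusp5*, *Dusp6*, *Dusp8*, *Dusp10* and *Dusp16*) and 2 Sprouty genes (*Spry2* and *Spry4*). They were taken by name from the 53421 genes counted in every library, and 9 of the 10 passed the filter on low counts, *Dusp2* being the exception. IL-1β binds a receptor made of *Il1r1* and *Il1rap* and activates NFκB together with the MAP kinases ERK, p38 and JNK, which in cartilage cells drive expression of inflammatory mediators and matrix-degrading enzymes. MAP kinase phosphatases switch these kinases off by removing the phosphates of the activation loop. Many of them are themselves induced by MAP kinase activity and so close a negative feedback loop. Sprouty proteins act further upstream and restrain the Ras and ERK branch below growth factor receptors.

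The cells were a mouse line of fibroblast-like chondrocytes labelled wild type (WT), conditionally immortalised (growth at a permissive temperature with interferon-γ) and released from immortalisation before the experiments. They were transfected, before reaching confluence, with a pool of non-targeting siRNA (NT) or a pool of siRNA against *Ift88* (IFT88siRNA), which encodes an intraflagellar transport protein needed to build the primary cilium. The labels give the siRNA at 50 nM and the methods at 10 nM. RNA was taken from cells in medium only (0 h) and after 1, 2, 4, 8 and 24 h of IL-1β at 10 ng/ml. No group had medium only at 1 to 24 h. Changes from 0 h through IL-1β therefore cannot be told apart from those through handling or time in culture. Each of these 12 conditions had 3 replicates, which made 36 poly(A) RNA libraries. All of the groups share the line and the transfection, and nothing in the labels says whether replicates came from separate cultures, so p-values measure only the spread between these libraries, which may be technical.

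Counts per library ran from 19337022 to 38304127. *Ift88* was between 5.83 and 10.2 CPM (counts scaled to library size) in the 18 NT libraries and between 1.43 and 3.10 CPM in the 18 IFT88siRNA libraries, and was left at 22.9% to 36.1% of the NT level across the 6 time points. Of the cartilage markers, *Col11a1* (11.65 to 92.9 TPM, which also divides by transcript length), *Sox9* (5.98 to 34.6 TPM) and *Comp* (4.18 to 22.0 TPM) were expressed. *Col2a1* was between 1.43 and 9.05 TPM, *Acan* did not pass 0.206 TPM and *Matn3* did not pass 0.452 TPM. *Col9a1* was at 0 in 25 of the 36 libraries. The fibroblast markers *Vim* (953 to 3104 TPM), *Col1a2* (414 to 1006 TPM), *Col3a1* (70.3 to 431 TPM) and *Col1a1* (64.97 to 129.9 TPM) were abundant. *Pdgfra* (6.11 to 26.9 TPM) and *Thy1* (3.29 to 19.7 TPM) were lower. The 5 macrophage and leukocyte markers summed to between 4.45 and 12.6 TPM over both siRNA groups, nearly all of it *Cd68*, with *Ptprc* at 0 in 18 libraries and *Adgre1* at 0 in 28. These are bulk libraries, in which fewer cells of a type and less RNA per cell cannot be told apart.

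All 9 members that could be tested changed over the IL-1β course in the NT cells, and 8 of them had their largest change upwards. A gene was called changed over time when the 5 time points tested together against 0 h gave an adjusted p under 0.05 and at least 1 of them moved by more than 1.5-fold, which held for 50% of the 16048 genes tested in NT. At 1 h, 7 members were called higher and 1, *Dusp4*, lower, beside 9.22% of all genes called higher and 9.45% called lower. At 2 h, 8 members were higher and none lower (13% and 14.3% of all genes). At 4 h, 8 were higher and *Dusp4* was lower (16.3% and 12.4%). By 8 h only *Dusp1* and *Dusp5* were still called higher and *Dusp4* lower (11.8% and 7.87%), and at 24 h *Dusp4* alone was called, as lower (6.61% of all genes higher and 9.71% lower). The median change of the 9 members was 1.59 on the log2 scale at 1 h, 1.29 at 2 h, 0.93 at 4 h, 0.25 at 8 h and 0.11 at 24 h, beside medians over all genes between -0.019 and -0.0077.

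**Figure D1:**
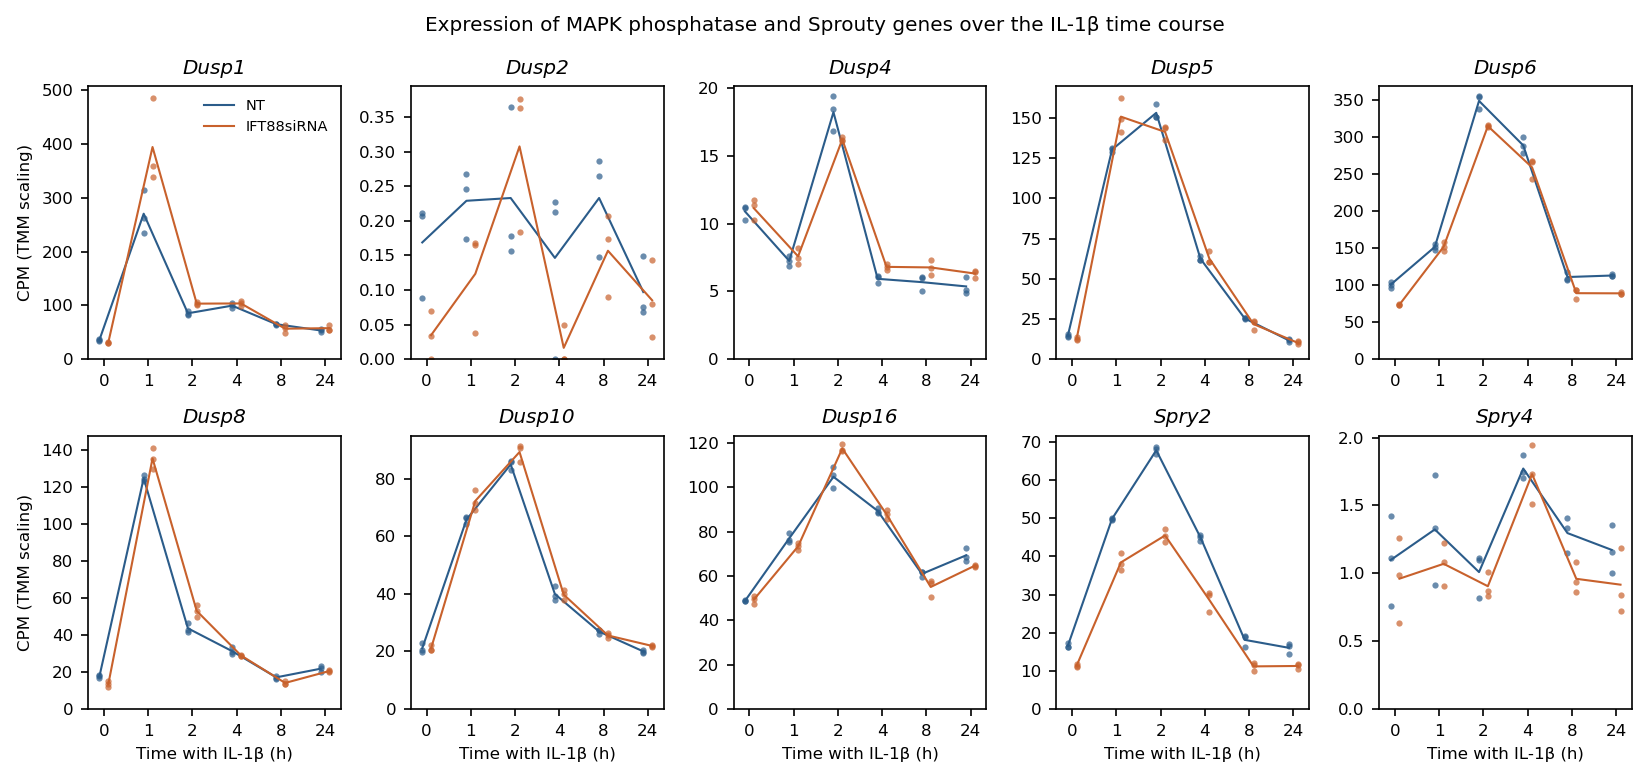
Expression of the 10 genes in CPM (y axes, each from 0) against time with IL-1β in hours (x axes, time points evenly spaced), with 1 point per library and lines through the means of 3 replicates in NT (blue) and IFT88siRNA (orange). *Dusp1* and *Dusp8* peaked at 1 h in both groups, *Spry2* was lower in IFT88siRNA at every time point, and *Dusp2* stayed under 0.38 CPM in all 36 libraries.

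Of the inducible nuclear phosphatases, *Dusp1*, which acts on p38 and JNK as well as ERK, gave the sharpest peak. At 0 h its NT libraries held 34.7, 36.6 and 37.4 CPM, at 1 h they held 234, 263 and 314 CPM, and by 2 h they were back to 82.7, 83.8 and 89.9 CPM. No library at 1 h came near those at any other time. The change at 1 h was 2.90 on the log2 scale (SE 0.076, adjusted p = 3.79e-20), a 7.46-fold rise, and 2 h was 3.17-fold below 1 h (log2 -1.67, SE 0.070, adjusted p = 1.88e-15). A small further rise to between 94.6 and 104 CPM followed at 4 h, where every library lay above those at 2 h (1.18-fold, adjusted p = 0.00687). At 8 h *Dusp1* was still 1.80-fold above 0 h (log2 0.85, SE 0.077, adjusted p = 1.28e-09). At 24 h its 1.48-fold excess passed the test (adjusted p = 1.63e-06) but not the fold threshold. The default counting ignores strand, and 11 exonic bases of *Dusp1* overlap *Ergic1* on the opposite strand, a gene with 2615 to 7357 reads per library beside 782 to 12987 for *Dusp1*.

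*Dusp5* (chr19:53529109-53542431, plus strand, GRCm38), a nuclear phosphatase selective for ERK, had the largest change of the members in NT. Its 0 h libraries held 13.8, 14.5 and 15.4 CPM, the 1 h libraries 129, 131 and 131 CPM, and the 2 h libraries 150.4, 150.5 and 158 CPM. The 2 h libraries lay above every 1 h library, and both sets lay far above 0 h. The rise at 2 h was 10.5-fold (log2 3.39, SE 0.052, adjusted p = 8.68e-25). From there the mean fell through 62.4 CPM (4 h) and 25.4 CPM (8 h) to 11.7 CPM (24 h), below 0 h by 0.31 on the log2 scale (adjusted p = 0.000241). *Dusp5* shares 547 exonic bases with the antisense transcript AC137853.2, which has no row in the count table, so reads of both strands there would fall to *Dusp5*.

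*Dusp4* (chr8:34807297-34819894, plus strand), a nuclear phosphatase of ERK, JNK and p38, was the member that passed both thresholds in both directions. Its NT libraries held 10.2, 11.2 and 11.2 CPM at 0 h, between 6.89 and 7.64 CPM at 1 h, between 16.8 and 19.4 CPM at 2 h, and between 4.91 and 6.12 CPM from 4 h on. The 0 h libraries were therefore above all those at 1 h and from 4 to 24 h and below all those at 2 h. The change from 0 h was -0.59 at 1 h (SE 0.096, adjusted p = 1.52e-05), 0.73 at 2 h (SE 0.085, adjusted p = 5.69e-08) and -1.02 at 24 h (SE 0.096, adjusted p = 3.00e-09) on the log2 scale. Its 2 h rise stood 2.50-fold above 1 h (adjusted p = 1.78e-11). *Dusp2* (chr2:127336159-127338376, plus strand), best known from lymphocytes, had between 0 and 9 reads per library (at most 0.376 CPM) and was not tested. A count of 0 allows up to 3 reads by counting error alone.

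*Dusp6* (chr10:99263231-99267489, plus strand), the cytoplasmic phosphatase that is selective for ERK, was the most abundant member per transcript at 0 h and at 2, 4, 8 and 24 h in NT. In NT it measured 96.6, 100.5 and 104 CPM at 0 h, 148, 152 and 155 CPM at 1 h, 337, 354 and 354 CPM at 2 h and 279, 287 and 299 CPM at 4 h. Each of these sets of libraries lay apart from the next. The rise was 1.51-fold at 1 h (log2 0.59, SE 0.044, adjusted p = 5.64e-11) and 3.46-fold at 2 h (log2 1.79, SE 0.044, adjusted p = 9.98e-21). *Dusp6* thus peaked later than *Dusp1*. At the time point after the peak, *Dusp6* had 82.8% of it left (4 h) and *Dusp1* 31.6% (2 h). These steps differ in length, and *Dusp6* started from a higher level relative to its peak. Against its own 0 h level *Dusp1* stayed raised for longer, with NT means of 36.25 CPM at 0 h, 65.2 CPM at 8 h and 53.6 CPM at 24 h. *Dusp6* at 8 and 24 h was 1.11- and 1.12-fold above 0 h (adjusted p = 0.00730 and 0.00293). Both of these *Dusp6* tests were lost without replicate 1 (adjusted p = 0.0671 and 0.0819) and on the TPM values (0.215 to 0.352).

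Among the phosphatases that prefer JNK and p38, *Dusp8* behaved like *Dusp1*, and *Dusp10* and *Dusp16* were later. *Dusp8* in NT went from 17.03, 17.98 and 18.4 CPM before IL-1β to 123, 124 and 127 CPM an hour later, a 7-fold rise (log2 2.81, SE 0.062, adjusted p = 1.26e-21) that had dropped to between 41.4 and 46.6 CPM at 2 h. By 8 h its libraries (16.5 to 18.1 CPM) overlapped those at 0 h. At 24 h they held 19.8 to 23.5 CPM, all above 0 h. That difference was under the fold threshold, and its test was lost on the TPM values (adjusted p = 0.259 to 0.374). *Dusp10* (chr1:184013302-184075636, plus strand), which also acts on p38 and JNK, rose from 20.0, 20.6 and 22.8 CPM to between 64.1 and 66.7 CPM at 1 h and to 83.0, 85.6 and 86.1 CPM at 2 h, where it was 4.01-fold above 0 h (log2 2.002, SE 0.054, adjusted p = 5.49e-20). At 24 h its libraries overlapped those at 0 h. *Dusp16* (chr6:134715468-134792625, minus strand) had the smallest rise of these phosphatases and the longest tail. Its NT values went from 48.6, 48.8 and 49.2 CPM before IL-1β up to 99.8, 106 and 109 CPM by 2 h (2.14-fold, log2 1.10, SE 0.043, adjusted p = 1.03e-16), and at 24 h the libraries still held 66.8, 68.8 and 72.5 CPM, all above 0 h (1.42-fold, adjusted p = 6.42e-10). *Dusp8* shares 66 exonic bases with Gm32786, which had at most 4 reads in a library.

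The Sprouty genes differed in level and response. *Spry2* (chr14:105891947-105896819, minus strand), an inhibitor of Ras and ERK signalling below growth factor receptors, was 16.2, 16.3 and 17.2 CPM at 0 h in NT, 49.5, 49.8 and 50.2 CPM at 1 h, 66.7, 68.0 and 68.7 CPM at 2 h and 44.2, 45.2 and 45.6 CPM at 4 h. Every library from 1 to 4 h lay above every library at 0 h. The rise at 2 h was 4.08-fold (log2 2.03, SE 0.061, adjusted p = 4.62e-19), and at 8 and 24 h the libraries overlapped those at 0 h (adjusted p = 0.114 and 0.600). *Spry4* on chromosome 18, a relative with a similar role, had only 18 to 42 reads per library. Its NT mean went from 1.10 CPM before IL-1β up to 1.77 CPM after 4 h (log2 0.70, SE 0.24, adjusted p = 0.0151), and its call over time was marginal (adjusted p = 0.0495). That call was lost in 8 of 10 alternative analyses, among them those without replicate 1, 2 or 3 (adjusted p = 0.296, 0.190 and 0.0511), and over the 10 the adjusted p ran from 0.0268 to 0.458.

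The order of the time points differed between members. In NT, *Dusp1* and *Dusp8* peaked at 1 h, *Dusp4*, *Dusp5*, *Dusp6*, *Dusp10*, *Dusp16* and *Spry2* at 2 h, and *Spry4* at 4 h. For *Dusp1*, neighbouring time points in the order 1, 4, 2, 8, 24 and 0 h did not overlap anywhere, and the same held for *Dusp5* in the order 2, 1, 4, 8, 0 and 24 h and for *Dusp16* in the order 2, 4, 1, 24, 8 and 0 h. *Dusp6* overlapped between 8 and 24 h, *Dusp8* between 0 and 8 h and *Dusp10* between 0 and 24 h. *Dusp4* overlapped among 4, 8 and 24 h and *Spry2* among 0, 8 and 24 h. All neighbouring time points of *Spry4* overlapped in NT. The full separation was not seen in IFT88siRNA. There *Dusp1* overlapped between 2 and 4 h and between 8 and 24 h, *Dusp5* between 1 and 2 h and *Dusp16* between 0 and 8 h. How many of all genes are separated in this way was not counted.

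The promoters of *Dusp1*, *Dusp8* and *Dusp5* are shown because these members had the earliest or the largest responses in NT, and because each holds a match to a motif that was searched for. RefSeq promoters of GRCm38.p6, from 250 bases before to 50 bases after the start, were found for 8 of the 10 members. *Dusp4* and *Spry4* had no entry. Both strands were searched for the cAMP response element (CRE, TGACGTCA), the AP-1 site (TGANTCA), the CArG box and the κB site. The stretch from -150 to -51 is printed 5′ to 3′ on the strand of the gene, with the matches in capitals, from chr17:26508523-26508622 on the minus strand for *Dusp1*, chr7:142095335-142095434 on the minus strand for *Dusp8* and chr19:53528995-53529094 on the plus strand for *Dusp5*.
Dusp1: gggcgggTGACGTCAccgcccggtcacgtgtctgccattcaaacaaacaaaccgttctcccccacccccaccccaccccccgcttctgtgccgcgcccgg
Dusp8: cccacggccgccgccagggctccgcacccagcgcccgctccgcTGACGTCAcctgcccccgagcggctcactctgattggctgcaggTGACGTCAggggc
Dusp5: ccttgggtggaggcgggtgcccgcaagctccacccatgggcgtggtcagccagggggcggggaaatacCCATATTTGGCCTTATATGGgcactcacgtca
The capitals mark 1 CRE in *Dusp1* at -143 to -136, 2 in *Dusp8* at -107 to -100 and -63 to -56, and 2 adjoining CArG boxes in *Dusp5* at -82 to -73 and -72 to -63, and no match overlapped another. The *Dusp1* and *Dusp8* stretches lie inside the span of the annotated genes (chr17:26505590-26562128 and chr7:142079490-142095843), which hold transcripts that start further upstream. Of all 32851 promoters of this length, 1.79% held a CRE, 1.63% a CArG box, 7.81% an AP-1 site and 8.46% a κB site. The promoters of *Dusp2*, *Dusp6*, *Dusp10*, *Dusp16* and *Spry2* held none of the 4 motifs in this window, and *Dusp1*, *Dusp5* and *Dusp8* held no AP-1 or κB site. A match is a description of the letters, and its use was not tested.

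The shifting peaks changed which phosphatase transcript prevailed. On the TPM scale, which divides by transcript length, the 8 Dusp genes together summed to 182 ± 3.86 TPM (mean ± SD, n = 3) at 0 h in NT, 570 ± 38.9 at 1 h, 519 ± 6.70 at 2 h, 389.7 ± 12.9 at 4 h, 219 ± 4.997 at 8 h and 197 ± 5.11 at 24 h. At 0 h *Dusp6* made up 43.9% of that sum and *Dusp1* 21.7%. At 1 h *Dusp1* held 43.2% ± 3.92 and *Dusp6* 18.96% ± 1.44. At 2 h *Dusp6* was again first with 43.2% ± 0.266, ahead of *Dusp5* with 21.1% ± 0.822 and *Dusp1* with 14.5% ± 0.327. *Dusp8* held 8.34% at 1 h and between 2.83% and 4.38% at the other times, and *Dusp2* never held more than 0.147%.

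**Figure D2:**
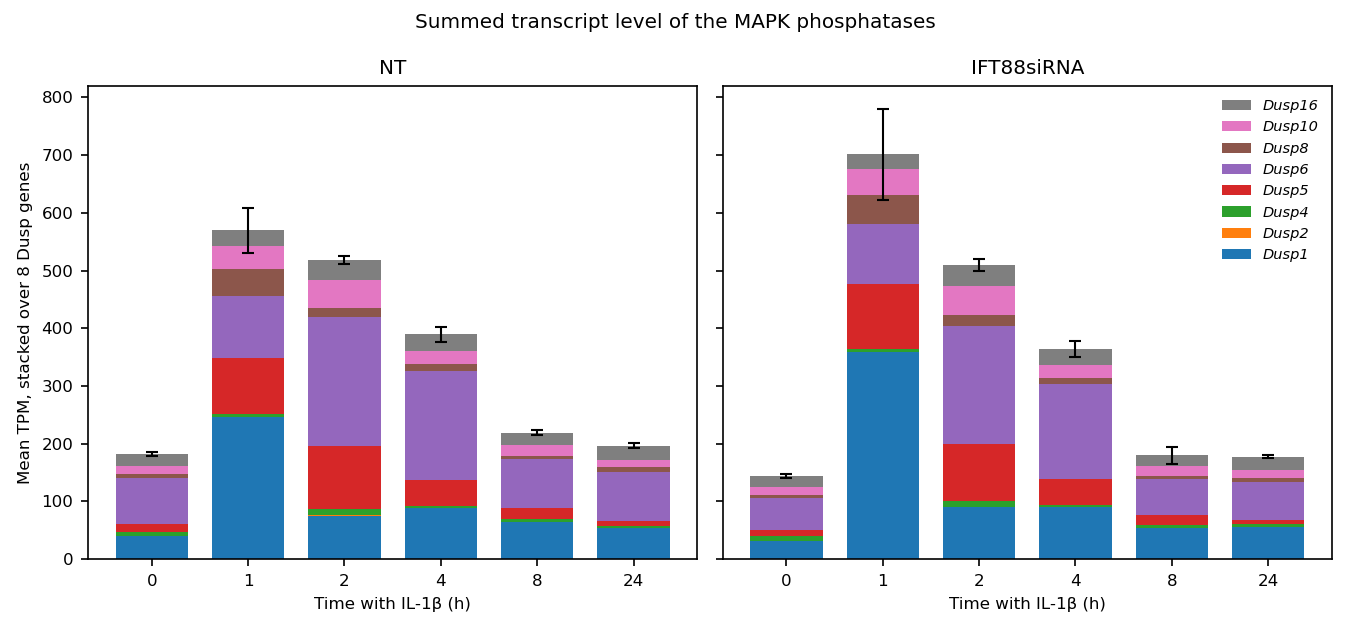
Stacked mean TPM of the 8 Dusp genes (y axis, from 0) at each time with IL-1β in hours (x axis), for NT (left) and IFT88siRNA (right); error bars are the SD of the sum over 3 replicates. The sum was highest at 1 h in both groups, 570 TPM in NT and 702 TPM in IFT88siRNA, with *Dusp1* as the largest part at that time.

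The same members responded in the IFT88siRNA cells. All 9 were called changed over time, beside 48.2% of the 16129 genes tested there, and each peaked at the same time point as in NT apart from *Dusp5*, whose 1 h libraries (141, 149 and 162 CPM) and 2 h libraries (136, 144 and 144 CPM) overlapped in IFT88siRNA. *Dusp1* rose 12.6-fold at 1 h (log2 3.66, SE 0.11, adjusted p = 1.05e-18), *Dusp8* 10.1-fold (log2 3.33, SE 0.068, adjusted p = 3.77e-22) and *Dusp5* 11.8-fold (log2 3.56, SE 0.084, adjusted p = 7.13e-21). *Dusp4* again fell at 1 h, rose at 2 h and ended at 57.0% of its 0 h level at 24 h (log2 -0.81, SE 0.085, adjusted p = 2.72e-08), although its 1 and 2 h changes were under the fold threshold here. *Spry4* was called in these cells as well (largest log2 change 0.84, adjusted p = 0.00573), a call that was lost without replicate 2 (adjusted p = 0.112). At 24 h the IFT88siRNA libraries of *Dusp8* held 20.3 to 20.9 CPM, all above the 12.03 to 14.9 CPM at 0 h. This late difference passed on the adjusted p in all 12 alternatives (at most 0.00077).

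Depletion of *Ift88* was then compared with NT at each time point. *Spry2* was the member with a difference past both thresholds, lower in IFT88siRNA, and no difference of the other 8 reached 1.5-fold. Of the 54 member and time point pairs tested, 2 passed both thresholds, *Spry2* at 4 and 8 h, beside 1.28% of the gene and time point pairs over all genes. On the adjusted p alone, 4 members differed at 0 h, 3 at 1 h, 2 at 2 h, 1 at 4 h, 2 at 8 h and 2 at 24 h, 14 pairs in all. The shares of all genes that passed on that test were 19.5%, 19%, 2.76%, 3.85%, 4.25% and 8.66% in the same order. With the 6 time points tested together in all 36 libraries, 1 member, *Spry2*, was called on both thresholds (5.19% of all genes) and 7 passed on the adjusted p alone (31.8%). Averaged over the time points, 5 members were lower on the adjusted p alone (18.5% of all genes), namely *Spry2*, *Spry4*, *Dusp6*, *Dusp5* and *Dusp8*, and *Dusp4* was higher (21.3%).

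*Spry2* in IFT88siRNA measured 10.98, 11.3 and 11.9 CPM at 0 h, where NT had 16.2 to 17.2 CPM. At 1 h it was 36.3, 37.9 and 41.0 CPM, and at 2 h 43.9, 45.3 and 47.3 CPM, beside NT ranges of 49.5 to 50.2 and 66.7 to 68.7 CPM. At 4 h it was 25.5, 29.9 and 30.5 CPM, beside 44.2 to 45.6 CPM in NT. The groups did not overlap at these time points, nor at 8 h (10.0, 11.5 and 12.1 CPM against 16.3, 18.9 and 19.3 CPM) or at 24 h (10.5, 11.6 and 11.8 CPM against 14.5, 16.6 and 17.1 CPM). Of all 16710 genes, 0.832% had every IFT88siRNA library below every NT library at all 6 time points, and *Spry2* was the only member to do so. The difference on the log2 scale was -0.54 at 0 h (SE 0.074, adjusted p = 1.50e-05), -0.38 at 1 h (SE 0.053, adjusted p = 0.000166), -0.58 at 2 h (SE 0.051, adjusted p = 0.000233), -0.66 at 4 h (SE 0.068, adjusted p = 3.21e-05), -0.71 at 8 h (SE 0.099, adjusted p = 0.00319) and -0.52 at 24 h (SE 0.081, adjusted p = 0.000828). Its mean over time was -0.56 (SE 0.029, adjusted p = 2.95e-17), which is 67.9% of the NT level. The 8 h call was lost without replicate 1 or 2 (adjusted p = 0.0803 and 0.0744) and the 2 h test without replicate 1 (adjusted p = 0.0571), while the test over time passed in all 11 alternatives. On the TPM values the test was lost at 8 h (adjusted p = 0.0666 to 0.143) and at 24 h (0.0503 to 0.122) in all 3 analyses, and at 4 h (0.109) and 1 h (0.0516) in the analysis without a filter.

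**Figure D3:**
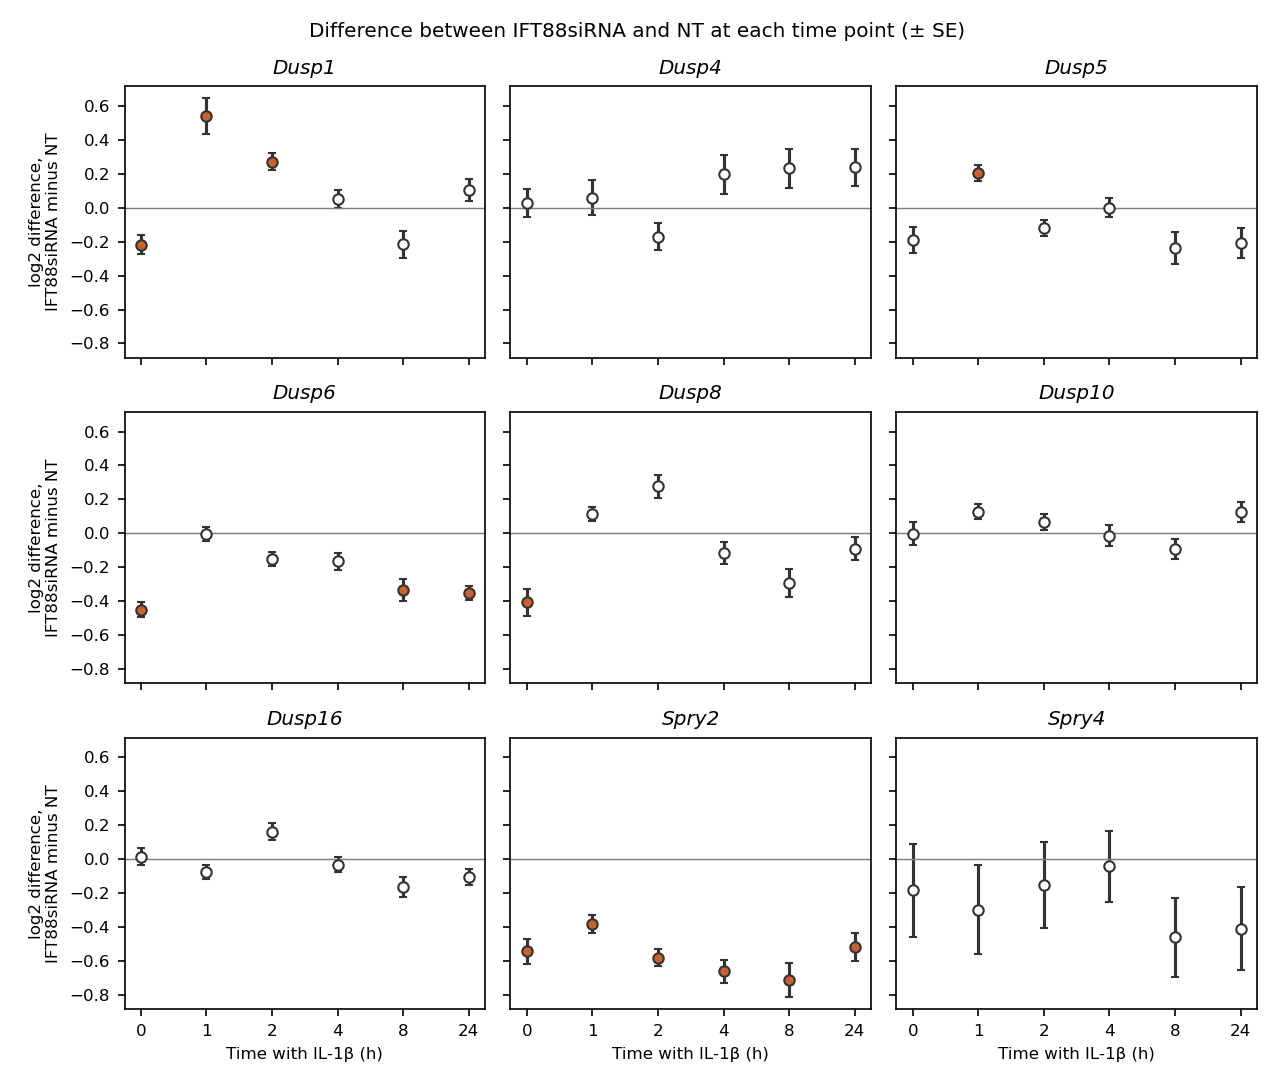
Difference between IFT88siRNA and NT on the log2 scale (y axes, negative where IFT88siRNA was lower) at each time with IL-1β in hours (x axes), for the 9 tested members; bars are ± 1 SE and filled points had an adjusted p under 0.05 (edgeR, 3 libraries against 3). *Spry2* lay between -0.71 and -0.38 throughout, and *Dusp6* was lowest at 0 h (-0.45) and at the NT level at 1 h.

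*Dusp6* was lower in IFT88siRNA before IL-1β and late in the course, and at the NT level at 1 h. At 0 h the IFT88siRNA libraries held 72.7, 73.5 and 74.8 CPM, all below the 96.6 to 104 CPM of NT (log2 -0.45, SE 0.043, adjusted p = 1.29e-07). At 1 h they held 146, 152 and 158 CPM, overlapping the NT libraries (log2 -0.0046, SE 0.042, adjusted p = 0.954). At 2 and 4 h all IFT88siRNA libraries were again below all NT libraries, by -0.15 and -0.16 on the log2 scale, without passing the test (adjusted p = 0.0798 and 0.0799). The difference was -0.33 at 8 h (SE 0.063, adjusted p = 0.0168) and -0.35 at 24 h (SE 0.043, adjusted p = 8.86e-05), with 88.0, 88.5 and 90.1 CPM at 24 h against 112, 112 and 115 CPM in NT. Its mean over time was -0.24 (SE 0.019, adjusted p = 3.93e-12). The 8 h test did not pass without replicate 1 or 2 (adjusted p = 0.127 and 0.173) or on the TPM values (0.0699 to 0.141), and the 24 h test did not pass on the TPM values without a filter (0.0869).

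*Dusp1* was lower in IFT88siRNA at 0 h and higher at 1 and 2 h, and *Dusp8* was lower at 0 h. *Dusp1* in IFT88siRNA was 29.9, 30.8 and 32.9 CPM at 0 h, below all NT libraries (log2 -0.22, SE 0.056, adjusted p = 0.00847). At 1 h it was 339, 360.1 and 485 CPM, all above the 234 to 314 CPM of NT (log2 0.54, SE 0.11, adjusted p = 0.00245), and at 2 h 101, 102 and 107 CPM, above 82.7 to 89.9 CPM (log2 0.27, SE 0.052, adjusted p = 0.0197). From 4 h on no difference passed (adjusted p = 0.156 to 0.660). The higher 1 h level carried an adjusted p of 0.0588 with DESeq2 and of 0.106 to 0.235 on the TPM values. The 0 h difference was lost without replicate 1 or 3 (adjusted p = 0.135 and 0.0614), on the TPM values without a filter (0.0557) and in the model of all 36 libraries (0.204). The 2 h difference was lost without replicate 1 or 3 (adjusted p = 0.376 and 0.0617), on the TPM values (0.0861 to 0.157) and in the model of all 36 libraries (0.0825). *Dusp8* in IFT88siRNA was 12.03, 13.4 and 14.9 CPM at 0 h, below NT (log2 -0.41, SE 0.079, adjusted p = 0.000788). It was 49.6, 53.3 and 56.3 CPM at 2 h, above the NT range of 41.4 to 46.6 CPM without passing the test (log2 0.28, SE 0.068, adjusted p = 0.0556). On the TPM values the 0 h difference of *Dusp8* had an adjusted p of 0.0515 to 0.130.

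The remaining members differed little. *Dusp5* was higher in IFT88siRNA at 1 h (log2 0.20, SE 0.047, adjusted p = 0.00678, and 0.0634 to 0.142 on the TPM values) and its other differences, between -0.24 and -0.0019, did not pass. *Dusp10* differed by -0.09 to 0.13 and *Dusp16* by -0.16 to 0.16 on the log2 scale, and neither passed at any time point. *Dusp16* passed over time (adjusted p = 0.00215), with 0.16 at 2 h and -0.16 at 8 h, and that was lost without replicate 1 (adjusted p = 0.136). The largest of its time points had the opposite sign without replicate 1 and with upper-quartile scaling (-0.17 in each) and on the TPM values (-0.22 to -0.21). *Dusp4* had a mean difference of 0.10 (SE 0.037, adjusted p = 0.0246), which was lost without replicate 2 or 3 (adjusted p = 0.334 and 0.118). It was also lost on the TPM values (0.101 to 0.192), with DESeq2 (0.0694) and with no count filter (0.0615). The test of *Dusp4* over time (adjusted p = 0.0199) was lost without any 1 of the replicates (adjusted p = 0.0602 to 0.488). It was lost as well with DESeq2 (0.0628) and with no count filter (0.0937). The lower means of *Dusp5* and *Dusp8* (-0.09, SE 0.030, adjusted p = 0.0194, and -0.08, SE 0.027, adjusted p = 0.0197) were lost without replicate 1 (adjusted p = 0.0935 and 0.175) or replicate 2 (0.0778 and 0.157). That of *Dusp8* was also lost with no count filter (0.0856). *Spry4* had a mean difference of -0.25 (SE 0.10, adjusted p = 0.0436) with no time point passing, and this was lost without replicate 2 or 3 (adjusted p = 0.0818 and 0.730). The mean of *Spry4* was also lost with DESeq2 (0.0748), with no count filter (0.115) and on the TPM values without a filter (0.1095).

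The size of the response to IL-1β was compared directly, as the change from 0 h in IFT88siRNA minus the change from 0 h in NT. Over the 5 time points together, *Dusp1* and *Dusp8* passed both thresholds, beside 1.2% of all genes, and *Dusp5*, *Dusp6* and *Dusp16* passed on the adjusted p alone, beside 5.53%. *Dusp1* differed most at 1 h, by 0.76 (SE 0.14, adjusted p = 0.00123; over time 0.00105), and *Dusp8* at 2 h, by 0.69 (SE 0.096, adjusted p = 5.38e-05; over time 3.45e-05). *Dusp6* differed by 0.45 at 1 h (SE 0.067, adjusted p = 8.63e-05), by 0.30 at 2 h and by 0.29 at 4 h (adjusted p = 0.0136 and 0.0147). *Dusp5* differed by 0.40 at 1 h (SE 0.10, adjusted p = 0.0284). All of these were larger responses in IFT88siRNA, and each contains the 0 h difference, which was -0.22 for *Dusp1*, -0.41 for *Dusp8* and -0.45 for *Dusp6*, and for *Dusp5* was -0.19 without passing the test (adjusted p = 0.0844). For *Dusp6* the 1 h levels themselves differed by -0.0046 (SE 0.042), so that nearly all of its 1 h value lay in the 0 h difference. *Spry2*, in contrast, rose by nearly the same factor from a lower base, 4.08-fold in NT and 3.99-fold in IFT88siRNA at 2 h, with a difference of -0.04 (SE 0.10, adjusted p = 0.935).

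The response tests did not all hold when a replicate was left out. *Dusp8* and *Dusp6* passed over time in all 11 alternatives, with an adjusted p of at most 0.0161 and 0.0298. At single time points, *Dusp8* at 1 h was lost without replicate 1 or 2 (adjusted p = 0.0882 and 0.0736), *Dusp5* at 1 h without replicate 1 or 3 (adjusted p = 0.294 and 0.289), *Dusp1* at 1 h without replicate 1 (adjusted p = 0.134), and *Dusp6* at 2 and 4 h without any 1 of the replicates (adjusted p = 0.105 to 0.232). *Dusp1* passed in 10 of 11, and without replicate 1 its largest difference was 0.75 with an adjusted p of 0.122. *Dusp5* passed in 9 of 11 and was lost without replicate 1 or 2 (adjusted p = 0.173 and 0.0786). *Dusp16*, whose largest difference was -0.16 at 8 h, passed in 5 of 11 and was lost without replicate 1, 2 or 3 (adjusted p = 0.389, 0.106 and 0.106). Its largest difference had the opposite sign without replicate 3 (0.19) and on the TPM values (0.21 to 0.22).

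**Figure D4:**
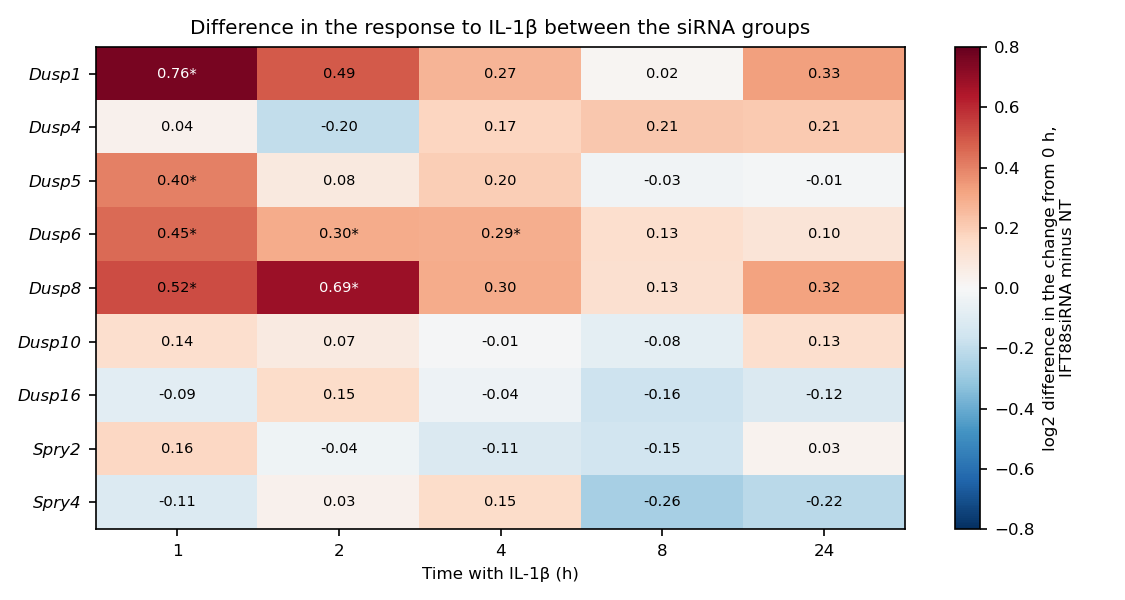
Difference in the log2 change from 0 h, IFT88siRNA minus NT, for the 9 tested members (rows) at each time with IL-1β in hours (columns), from -0.8 (blue) to 0.8 (red); asterisks mark an adjusted p under 0.05 at that time point (edgeR, all 36 libraries). The marked values are *Dusp1* at 1 h (0.76), *Dusp5* at 1 h (0.40), *Dusp6* at 1, 2 and 4 h (0.45, 0.30 and 0.29) and *Dusp8* at 1 and 2 h (0.52 and 0.69).

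In the summed phosphatase transcript the 2 directions were both visible. The 8 Dusp genes held 143 ± 3.39 TPM at 0 h in IFT88siRNA, below all 3 NT libraries (140 to 147 against 177.5 to 185 TPM), and 702 ± 79.2 TPM at 1 h, above all of them (650.5 to 793 against 544 to 614.5 TPM). At 2 h the sums overlapped (510.2 ± 10.6 against 519 ± 6.70 TPM). At 4 h IFT88siRNA was again below all NT libraries (350.1 to 376.8 against 378.3 to 403.7 TPM). It was also below NT at 8 and 24 h, 180 ± 14.7 against 219 ± 4.997 TPM and 177 ± 2.97 against 197 ± 5.11 TPM. *Dusp1* made up 50.9% ± 4.04 of the sum at 1 h in IFT88siRNA and 43.2% ± 3.92 in NT. None of the differences in the sum was tested, and the 4 h ranges of the groups nearly touched.

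The receptor chains were read beside these values. *Il1rap*, the accessory chain of the IL-1 receptor, had a mean difference of -0.46 (SE 0.022, adjusted p = 2.34e-18), and *Il1r1*, the binding chain, of -0.09 (SE 0.025, adjusted p = 0.00323). *Il1rap* was lower at every time point, from -0.55 at 8 h to -0.32 at 0 h, as *Spry2* was. At 1 h, where *Dusp1* was higher in IFT88siRNA, *Il1rap* was at 77.2 to 79.9 CPM against 109.7 to 114 CPM in NT. The part of the receptor chains in the differences of the members was not tested.

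Some members had closely similar profiles across the 12 condition means. On log2 CPM, *Dusp5* and *Dusp10* had a Pearson correlation of 0.978, *Dusp1* and *Dusp8* of 0.943, *Dusp6* and *Dusp16* of 0.937 and *Dusp5* and *Spry2* of 0.932. Among 10756 genes with a mean of at least 5 CPM, the profile most like *Dusp1* was that of *Slc25a25*, a mitochondrial carrier (0.983), followed by *Jun*, a subunit of AP-1 (0.978), and *Per1*, a clock gene (0.974). *Dusp8* was most like *Plk3* (0.993), a stress-responsive kinase, and *Dusp6* like *Klf4* (0.991), a transcription factor. *Spry2* was most like *Rela* (0.984), the p65 subunit of NFκB, followed by *Ranbp2* (0.973) and *Fosl1* (0.969), another AP-1 subunit. *Dusp5* was nearest to *Lamp1* (0.990), *Dusp10* to *Sbds* (0.990), *Dusp16* to AU019823 (0.986), *Dusp4* to *Efnb1* (0.983) and *Spry4* to *Mtm1* (0.958). These points share the same 36 libraries and the strong course over time, and the values describe likeness of profile in these 12 conditions.

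Other genes of the MAP kinase pathway moved in both directions under IL-1β. Of 16 other MAPK phosphatases tested of 18 listed, 10 were called over time in NT (50% of all genes), 6 with their largest change upwards and 4 downwards, with a median largest change of 0.26 on the log2 scale beside -0.21 over all genes and 2.002 over the members. *Ptpn5*, a tyrosine phosphatase of ERK and p38, went from 0.455 ± 0.103 CPM before IL-1β down to 0.0800 CPM by 2 h (log2 -2.45, adjusted p = 0.000399) and up to 2.55 ± 0.470 CPM by 24 h, and *Ptpn7*, which acts on ERK and p38 in blood cells, from 8.75 ± 0.617 to 2.80 ± 0.458 CPM at 8 h. Of the 5 other Sprouty and Spred genes, 3 were called, all with their largest change downwards, and the median was -0.65. *Spry1* had 14.3 ± 0.450 CPM before IL-1β and 7.31 ± 0.773 CPM after 24 h, whereas *Spry2* rose and returned. *Spry3* began at 0.853 ± 0.190 CPM, reached its lowest level of 0.142 ± 0.0125 CPM by 2 h and stood at 3.17 ± 0.352 CPM by 24 h. At 2 h in NT, *Ptpn5* and *Spry3* both lay below the mean of *Dusp2* (0.233 CPM). The size of their falls therefore rests on few reads.

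Among the kinases, 5 of 10 MAP kinases tested of 13 listed were called (4 up, 1 down), 4 of 7 MAP kinase kinases (3 up, 1 down) and 6 of 15 MAP3 kinases (3 up, 3 down), beside 50% of all genes. Their median largest changes were -0.16, 0.31 and -0.22 on the log2 scale. *Map3k8*, a kinase that activates MEK and ERK below inflammatory receptors, rose from 3.56 ± 0.936 CPM to 72.6 ± 4.43 CPM at 1 h (log2 4.35, adjusted p over time = 1.65e-20), the time of the *Dusp1* and *Dusp8* peaks. *Map2k3*, which activates p38, rose from 112 ± 0.917 to 275 ± 8.68 CPM at 2 h, and *Mapk6*, an atypical MAP kinase, from 138 ± 4.14 to 401 ± 11.6 CPM at 2 h. *Map2k6*, the other activator of p38, fell from 1.49 ± 0.445 to 0.387 ± 0.157 CPM by 4 h, *Mapk12*, a p38 kinase, from 2.06 ± 0.298 to 0.998 ± 0.264 CPM at 1 h, and *Map3k6*, a stress-activated kinase, rose from 12.2 ± 1.64 to 28.6 ± 0.862 CPM at 4 h. None of the phosphatases, Sprouty and Spred genes or kinases outside the members was called between IFT88siRNA and NT over time, although 3 of 16, 1 of 5, 5 of 11, 2 of 7 and 7 of 15 passed on the adjusted p alone, beside 31.8% of all genes.

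Genes that are commonly induced through ERK had large changes under IL-1β and were mostly lower in IFT88siRNA. All 16 were called over time in NT (50% of all genes), 14 upwards and *Etv4* and *Etv5* downwards, with a median largest change of 2.85 on the log2 scale. *Fosb* rose from 3.77 ± 0.350 to 763 ± 32.2 CPM at 1 h and *Egr3* from 15.3 ± 1 to 902 ± 49.8 CPM. Between the siRNA groups 4 of the 16 were called over time, beside 5.19% of all genes. These were *Egr1*, *Egr2*, *Fos* and *Fosl1*, with their largest difference downwards in IFT88siRNA. On the adjusted p alone, 13 of 16 were lower on average, beside 18.5% of all genes. *Egr1* was 301 ± 2.81 CPM at 0 h in NT and 211 ± 9.38 CPM in IFT88siRNA, and reached 1901 ± 132 and 1898 ± 225 CPM at 1 h, with a mean difference of -0.40 (adjusted p = 1.09e-10). *Fos* was 18.6 ± 0.474 against 13.1 ± 0.495 CPM at 0 h and 229 ± 18.9 against 236 ± 34.1 CPM at 1 h, with a mean difference of -0.38 (adjusted p = 9.15e-09). Both were thus lower at 0 h with overlapping levels at 1 h, as *Dusp6* was. Of the 16, 3 were called for a different response, *Egr3*, *Fosl1* and *Errfi1* (1.2% of all genes). On the adjusted p alone 8 passed (5.53% of all genes). All 8 had their largest response difference, IFT88siRNA minus NT, upwards, as *Dusp1*, *Dusp5*, *Dusp6* and *Dusp8* had. These values too contain the 0 h difference. The median mean difference of the list was -0.19, beside -0.079 over the 9 members and -0.0027 over all genes.

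**Figure D5:**
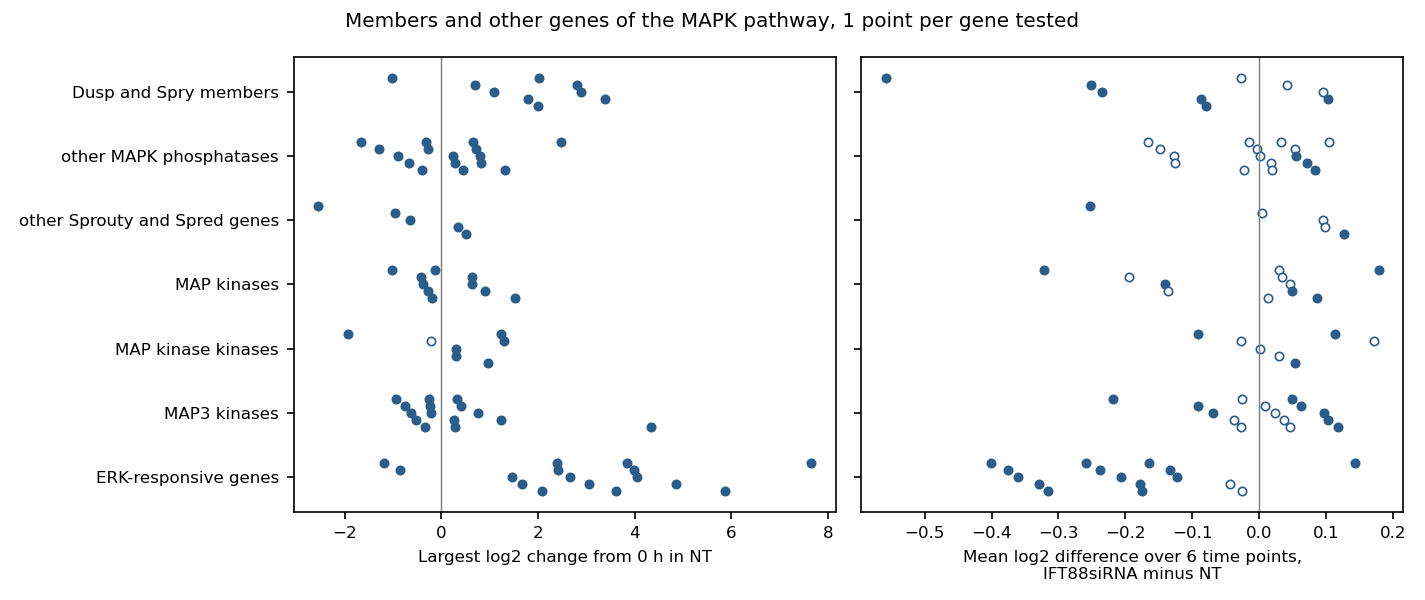
Each point is a tested gene, grouped by list (rows), with its largest log2 change from 0 h in NT (left) and its mean log2 difference between IFT88siRNA and NT over 6 time points (right); filled points had an adjusted p under 0.05 (edgeR). The members and the ERK-responsive genes lay mostly to the right in the left panel, and *Spry2* (-0.56) was the leftmost point in the right panel.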

How the data were processed

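RNA of a mouse chondrocyte line was sequenced as poly(A) libraries, paired end, over 3 lanes. The authors aligned the reads with HISAT2 2.1.0 to GRCm38 and deposited raw counts per gene from featureCounts (Subread 1.6.3) with Ensembl annotation, and TPM from Salmon 0.9.1. Counting kept the default settings of featureCounts, which ignore strand. All 36 columns matched a sample and 0 were left unmatched. The authors' mapping of libraries to lanes was not used here.

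Counts per library ran from 19337022 to 38304127. The counts were fitted with edgeR 4.0.16 in R 4.3.3 (TMM scaling, filterByExpr, quasi-likelihood F-test), and p-values were Benjamini-Hochberg adjusted over all genes tested. A gene was called at an adjusted p under 0.05 and a fold above 1.5. The NT and the IFT88siRNA courses were each fitted over their 18 libraries, each siRNA difference at a time point over its 6, and differences over time, mean differences and response differences over all 36, with the time points weighted equally in the mean. The SE is the absolute log2 change divided by the square root of the F statistic. CPM used the TMM-scaled library sizes of all 36 libraries. Alternatives used DESeq2 1.42.0, and limma 3.58.1 on log2(TPM + 1). The fits were tested on simulated data.

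The members and lists were chosen with earlier results of these data known. All members, *Ift88* and both receptor chains were named. Of each pathway list, at most 2 genes with the largest change in NT and 2 with the largest mean siRNA difference were given values among those called, and for each member the 3 genes with the highest correlation. Marker sums over each whole list were taken as ranges over all time points, for NT against IFT88siRNA. They were 26.3 to 149.5 against 34.3 to 129 TPM for 7 cartilage markers and 1533 to 4415 against 1789 to 4596 for 6 fibroblast markers. For 5 leukocyte markers they were 4.92 to 12.6 against 4.45 to 10.1. For 3 endothelial markers they were 0.153 to 0.772 against 0.230 to 0.509, and for 3 epithelial markers 0.385 to 7.63 against 0.373 to 5.66. These ranges overlapped, but they span the whole course and do not compare the groups at a matched time. Promoter sequences came from RefSeq on GRCm38.p6, and gene spans and exons from GENCODE on GRCm38.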

Additional observations from a re-analysis of the deposited data

Results flagged for a closer look

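The response to IL-1β differed between IFT88siRNA and NT cells for 5 members in the test over the 5 time points (edgeR, all 36 libraries) on the adjusted p alone, beside 5.53% of all genes, and *Dusp1* and *Dusp8* also passed the fold threshold (1.2%). The largest difference on the log2 scale, IFT88siRNA minus NT, was 0.76 for *Dusp1* (adjusted p = 0.00105), 0.69 for *Dusp8* (adjusted p = 3.45e-05), 0.45 for *Dusp6* (adjusted p = 0.00011) and 0.40 for *Dusp5* (adjusted p = 0.00903). For *Dusp16* it was -0.16 (adjusted p = 0.00868). The first 4 were larger rises in IFT88siRNA, and each value contains the difference between the groups at 0 h. For *Dusp6* the NT and IFT88siRNA means were 100.5 and 73.65 CPM at 0 h but 151.5 and 151.8 CPM at 1 h. The sign for *Dusp16* was not stable, at 0.19 without replicate 3 and 0.21 to 0.22 on the TPM values. The test was lost for *Dusp16* without any 1 of the replicates, for *Dusp5* without replicate 1 or 2 and for *Dusp1* without replicate 1. Groups of 3 libraries were not tested for single outlying libraries.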

How the results depend on the processing

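The number of members called over time was 8 to 9 in NT and 8 to 10 in IFT88siRNA under every alternative, and the number of member and time point pairs called in NT was 23 to 37. The pairs called between IFT88siRNA and NT, 2 in the counts with both thresholds, came to 14 with no fold threshold, to 1 on log2(TPM + 1), to 0 on log2(TPM + 1) without a filter, and to between 0 and 3 when a replicate was left out, being 0 without replicate 1, 1 without replicate 2 and 3 without replicate 3. The members different over time, 1 with both thresholds, came to 7 with no fold threshold and to between 1 and 2 when a replicate was left out (*Dusp1* beside *Spry2* without replicate 1). The members with a different response, 2 with both thresholds, came to 5 with no fold threshold and to between 1 and 2 when a replicate was left out. Without a replicate the calls over time numbered 8 in NT and 8 to 9 in IFT88siRNA, and the NT pairs 26 to 30.

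No called mean difference or value at a single time point turned its direction under any alternative. The largest value in the tests over time turned for *Dusp5* (siRNA difference -0.22, and 0.25 with no count filter) and for *Dusp16* (siRNA difference 0.17, and -0.17 with upper-quartile scaling or without replicate 1 and -0.22 to -0.21 on TPM, response difference -0.16, and 0.19 without replicate 3 and 0.21 to 0.22 on TPM). With DESeq2, 224 of 234 values kept their side of the threshold, and 22, 15 and 11 of 234 were lost without replicate 1, 2 and 3. Same-numbered libraries of the siRNA groups showed little shared deviation. The correlation of their deviations from the group mean was -0.133 to 0.223, above 0.1 in 2 of 18 pairs. The best match had the same number for 5 of 18 libraries. Pairing by number was therefore not detected, which does not show that it was absent. With the replicate block the 6 counts were 9, 9, 28, 2, 1 and 2. Upper-quartile scaling moved the median of all genes by up to -0.12 on the log2 scale, and log2(TPM + 1) by up to -0.21, both against 0 h. Depth limits *Spry4* (18 to 42 reads per library) and *Dusp2* (0 to 9), whose changes were measured weakly or not at all.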
